A study of Mus musculus with 12 samples.

Results

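C2C12 is an immortalised mouse myoblast line whose cells stop dividing and fuse into myotubes when serum is lowered. The middle step of that course was examined here: 3 arrays of cells kept in differentiation medium for 5 days were set against 3 arrays of cells kept in it for 2 days, which is 6 of the 12 arrays of the series. Both groups were grown in 10% fetal bovine serum to 80 to 90% confluence and then moved to 2% horse serum, and the days spent there are the only difference the labels give. The other 6 arrays hold dividing cells in 10% serum and cells at day 8. RNA was taken from whole cultures of this line, which lacks the nerve, vessels and other cells of muscle. In such bulk RNA, fewer cells of a type and less RNA per cell cannot be told apart. The labels call the replicates independent experiments but do not say how far the cultures were separate. The p-values therefore rest on the spread among arrays of the same stage, part of which may be technical.

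Differentiation of myoblasts is driven by the basic helix-loop-helix factors Myf5, Myod1, Myog and Myf6, which bind E-box sequences with E proteins and act together with MEF2 factors. Myog marks cells committed to leave the cell cycle, and fusion and the assembly of sarcomeres follow its appearance. In dividing cells, E2F factors drive the genes of DNA replication, and promoters with CCAAT boxes and a cell cycle element drive the genes of mitosis. Silencing of both sets is part of the permanent exit from the cycle in muscle.

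The markers of the line and of its differentiation were present on the 6 arrays compared. Myod1, the factor that defines the lineage, had log2 signals, relative to the 75th percentile of each array, of 5.54, 5.41 and 5.33 at day 2 and 6.79, 6.91 and 6.94 at day 5. Des, the muscle intermediate filament desmin, gave 1.81, 0.54 and 1.31 at day 2 and 2.42, 2.67 and 2.93 at day 5. Acta1, skeletal muscle actin, gave 5.63, 5.75 and 5.05 at day 2 and 8.10, 8.24 and 8.17 at day 5. For these 3 genes the day 5 arrays lay above the day 2 arrays without overlap, and the probes of Myog, Ckm and Myh3 were also well above background on all 6 arrays.

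Of 37246 probes on the array, 22413 were tested, namely those well above background throughout day 2, throughout day 5 or both. On the 6 arrays 56.9% to 69.5% of spots were well above background, 75th percentiles ran from 1377 to 1565, and 0 spots were saturated. Signals correlated across probes at 0.985 to 0.994 within a stage and at 0.959 to 0.971 between the stages. In limma's moderated test 6889 probes differed between day 5 and day 2 (30.7% of those tested, adjusted p under 0.05): 3274 were higher at day 5 and 3615 lower. By gene, with each gene read from its brightest tested probe, 1857 of 13526 were higher (13.7%) and 2481 lower (18.3%), and the median log2 change over all genes was -0.11. These 2 shares are the background against which the counts of each gene group are read. Probes tested through 1 stage alone were called almost only in its favour. Of 1445 well above background throughout day 2 only, 27% were lower and 0% higher. Of 686 throughout day 5 only, 42.7% were higher and 0.146% lower. The slide that holds both stages (day 2 replicates 2 and 3, day 5 replicates 1 and 2) gives a comparison free of slide differences. With the slide as a block 5077 probes were called, and 4843 of them were also called without it, all in the same direction.

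**Figure D1:**
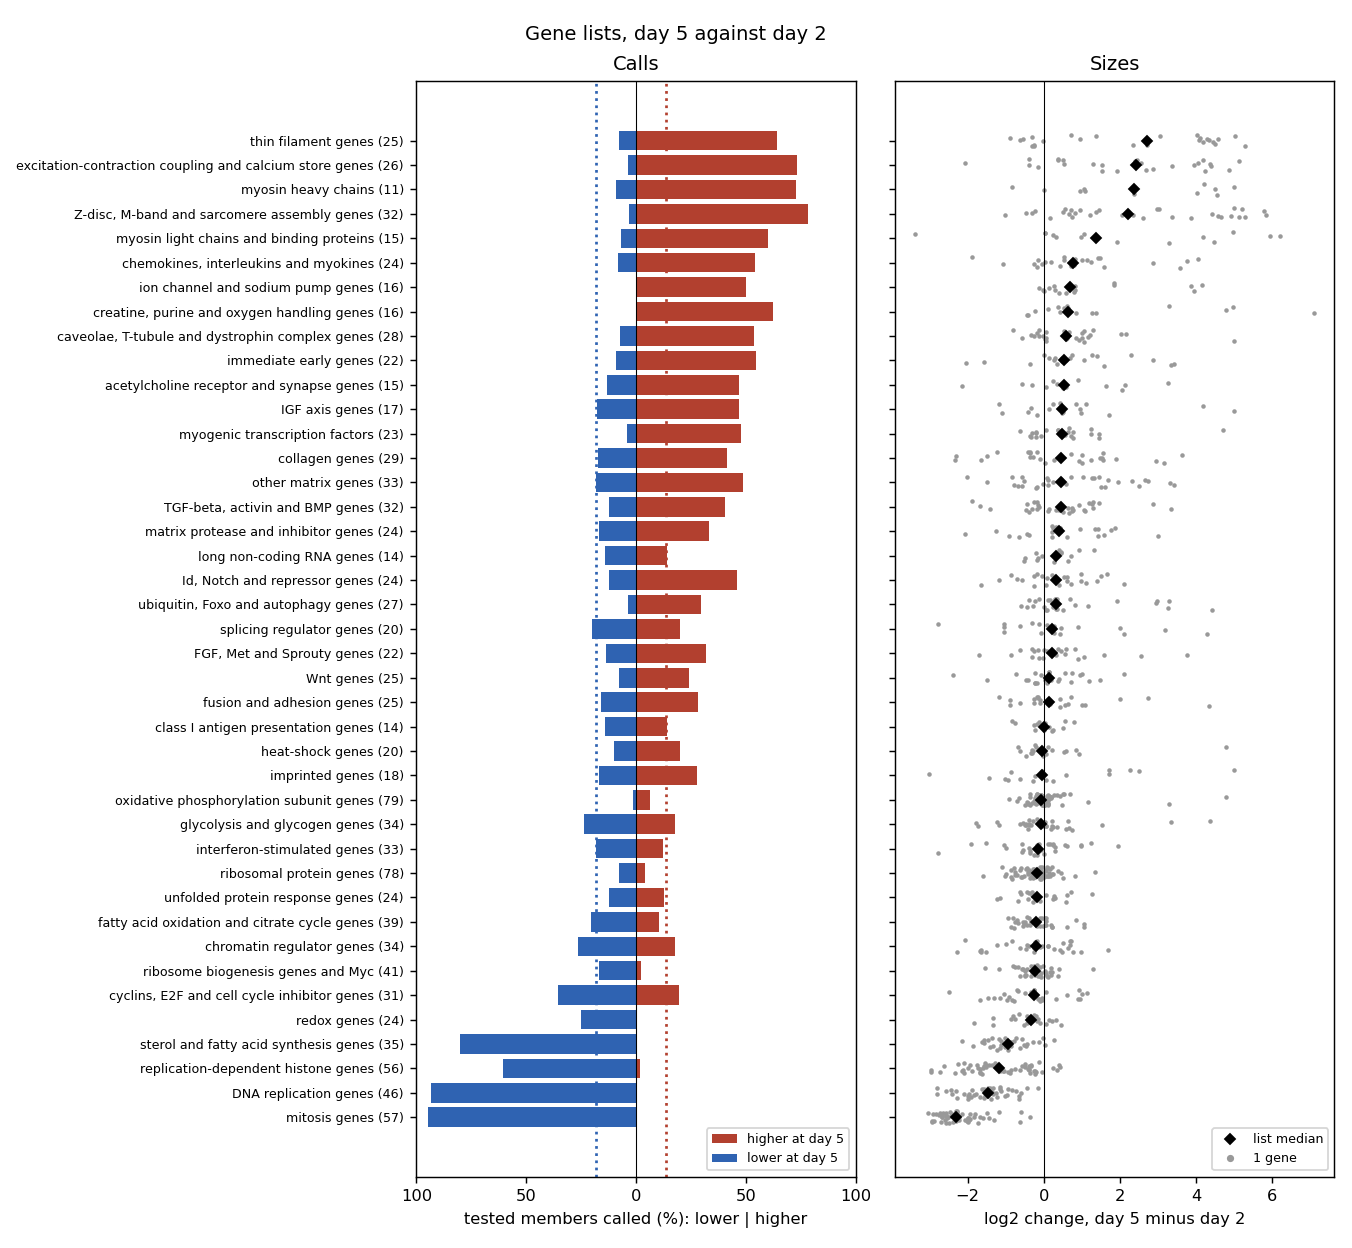
Gene lists, named on the left with the number of tested genes, ordered by their median log2 change from day 2 to day 5. In the left panel bars give the percentage of tested members called higher (red, right) or lower (blue, left) at day 5 and dotted lines give the shares over all genes tested (13.7% higher, 18.3% lower). In the right panel grey points are genes and black diamonds list medians. Lists of the sarcomere and the calcium store lie at the top, and mitosis, DNA replication, histone and sterol synthesis lists at the bottom.

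Genes of the contractile apparatus made up most of the largest rises. Mb, the oxygen-binding protein myoglobin, had the largest rise of any protein-coding gene well above background on all 6 arrays, with log2 signals of -4.26, -4.03 and -4.84 at day 2 and 2.39, 3.14 and 2.66 at day 5. That is 137-fold (log2 change 7.10 ± 0.41, where ± gives the standard error of the fit, limma adjusted p = 4.8e-07). Myl2, the slow and cardiac regulatory light chain, followed with -4.44, -4.80 and -4.81 at day 2 and 1.15, 0.93 and 1.68 at day 5, a change of 5.94 ± 0.32 (limma adjusted p = 3.23e-07). For both genes every day 5 array lay more than 4 log2 units above every day 2 array. Tcap, the titin cap of the Z-disc, rose by 5.79 ± 0.23, and Csrp3, a Z-disc mechanosensing protein, by 5.27 ± 0.21. Ankrd2, an ankyrin repeat protein of the stretch response, rose by 5.20 ± 0.57 and Myoz2, a calcineurin-binding Z-disc protein, by 5.12 ± 0.14. Tnnc2 and Tnnt3, fast skeletal troponins C and T, rose by 5.28 ± 0.27 and 5.02 ± 0.26. Abra, an actin-binding activator of serum response factor signalling, rose by 5.08 ± 0.18. Also among the 12 largest rises were Adora1, an adenosine receptor (5.69 ± 0.58), and Art1, a muscle ADP-ribosyltransferase (5.28 ± 0.17).

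Myosin heavy chains, the motors of the thick filament, were followed gene by gene. Myh3, the embryonic isoform, had log2 signals of -0.16, 0.50 and -0.28 at day 2 and 4.74, 5.23 and 5.05 at day 5, a 31.7-fold rise (log2 change 4.99 ± 0.21, limma adjusted p = 1e-07). Myh8, the perinatal isoform, gave -6.69, -7.04 and -7.47 at day 2 and -2.70, -2.23 and -2.79 at day 5, and its probe was well above background on 1 of 3 day 2 arrays. The adult fast isoforms moved as well: Myh4, the IIB isoform, gave -4.46, -4.09 and -4.93 at day 2 and -0.03, -0.20 and 0.36 at day 5, and Myh1, the IIX isoform, -2.71, -2.38 and -3.39 at day 2 and 1.15, 1.63 and 1.35 at day 5. Their log2 changes were 4.54 ± 0.24 and 4.20 ± 0.25, with no overlap between the stages. Myh7, the slow isoform, rose by 4.01 ± 0.22, Myh14, a non-muscle myosin, by 1.06 ± 0.16, and Myh7b, a slow-type gene that hosts a microRNA, by 2.36 ± 0.20. The Myh7b probe was well above background on 1 of 3 day 2 arrays, and its call was lost with another background correction (normexp, adjusted p = 0.0517). Myh10, a non-muscle myosin of dividing cells, fell by 0.83 (0.13 SE). Myh9, the other abundant non-muscle myosin, changed by -0.01 ± 0.18, and Myh2, the IIA isoform with 2 of 3 day 2 arrays above background, by 1.07 ± 0.49 (adjusted p = 0.126). Neither was called. Myh6, the cardiac alpha isoform, with 2 of 3 day 2 arrays above background, was called at 0.94 ± 0.27 (adjusted p = 0.0229), but not without day 2 replicate 1 (0.0864) or 2 (0.0599) or day 5 replicate 2 (0.0845), nor with the slide as a block (0.057). In all, 8 of 11 tested heavy chains were higher and 1 lower, with a median of 2.36 (2.15 within the shared slide). Probes of these close relatives were not checked for cross-hybridisation.

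Most members of the other sarcomere lists were higher too. Of 15 tested light chains and myosin-binding proteins 9 were higher and 1 lower (median 1.37, 1.57 within the slide). Mybpc2, fast myosin-binding protein C, rose by 6.20 ± 0.30, from a day 2 level at which 2 of 3 arrays were well above background. Myl4, the embryonic and atrial essential light chain, rose by 4.97 ± 0.20 and Mylpf, the fast regulatory light chain, by 4.46 ± 0.21. Myl7, the atrial regulatory light chain, went the other way and was at least 5.00-fold lower at day 5, where no array was well above background. Of 25 thin filament genes 16 were higher and 2 lower (median 2.70, 2.78 within the slide). Tnnc1, slow and cardiac troponin C, rose by 4.50 ± 0.23 and Lmod2, a leiomodin that elongates thin filaments, by 4.57 ± 0.22. The 2 that fell are tropomyosins of non-muscle or slow cells: Tpm3 by 0.89 and Tpm4 by 0.64. The Tpm4 call was lost without day 2 replicate 3 (adjusted p = 0.0672) or day 5 replicate 3 (0.0635). Of 32 tested Z-disc, M-band and assembly genes 25 were higher and 1 lower (median 2.20, 2.37 within the slide). Actn2, the Z-disc crosslinker alpha-actinin 2, gave -8.06, -7.02 and -8.56 at day 2 and -2.26, -1.88 and -1.99 at day 5, and 1 of its 3 day 2 arrays was well above background. Xirp2, an actin-binding repeat protein, was the list's only fall (-1.01 ± 0.16), and was not called without spots marked as non-uniform by the scanner (adjusted p = 0.0671). Without such spots fewer members could be tested: 4 of 7 heavy chains, 2 of 6 light chain genes, 4 of 8 thin filament genes and 11 of 14 Z-disc genes were then higher. With the percentile still taken from all spots the counts were 5, 2, 4 and 10, and Xirp2 was called (adjusted p = 0.00103).

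**Figure D2:**
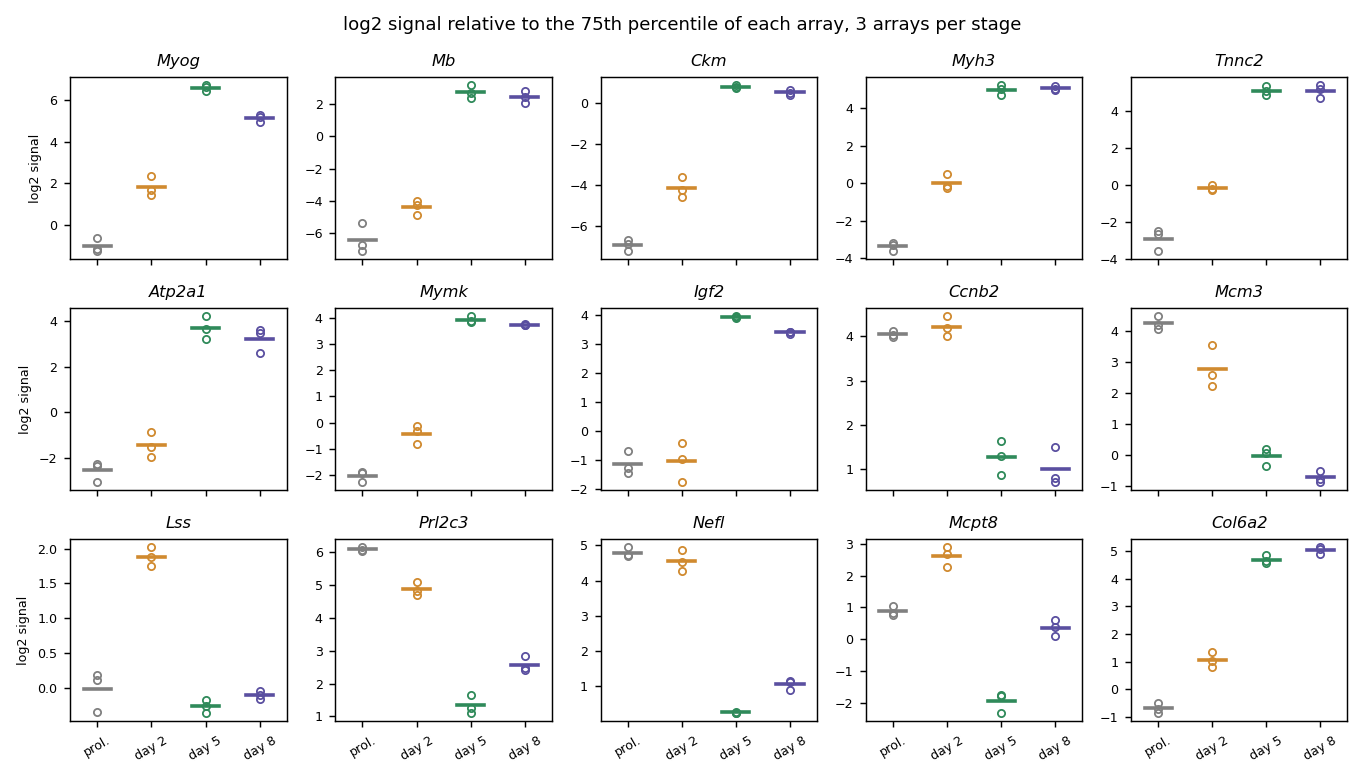
Signals of 15 named genes on all 12 arrays. The vertical axes give log2 signal relative to the 75th percentile of each array, open circles are the 3 arrays of a stage and bars their means; prol. is proliferation. Day 5 lies above day 2 without overlap for Myog, Mb, Ckm, Myh3, Tnnc2, Atp2a1, Mymk, Igf2 and Col6a2, and below it without overlap for Ccnb2, Mcm3, Lss, Prl2c3, Nefl and Mcpt8.

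Promoter windows were read from RefSeq (assembly GRCm38.p6, 250 bases before to 50 after each gene's start, 27025 genes). The E-box CAGCTG, which reads the same on both strands, occurred in a window of 26 of the 70 sarcomere genes that have one (37.1%), against 18.3% of all genes in the table. It was not particular to the sarcomere. Of coupling and calcium store genes 7 of 16 held it (43.8%), as did 12 of 33 glycolysis and glycogen genes (36.4%). The MEF2 site, searched by its name's consensus on both strands, occurred in 11 of the 70 sarcomere genes (15.7%) against 3.70%. The matches were not spread over all sarcomere lists. They lay in 8 Z-disc, M-band and assembly genes and 3 heavy chains. None of the 19 thin filament genes or of the 15 light chain and binding protein genes with a window held the site. Genes with several windows counted once if any window matched, and a match is a description of letters, not a bound site. The 250 bases upstream of 3 genes that hold both motifs are shown, chosen after their values were seen, with both motifs in capitals. Myoz2 is described with the Z-disc genes, Klhl41 is a kelch protein that stabilises thin filament proteins (-1.59, -1.28 and -1.92 at day 2 and 2.63, 3.00 and 2.79 at day 5) and Myh4 is the IIB heavy chain. Their windows are chr3:123034988-123035237 on the minus strand, chr2:69669870-69670119 on the plus strand and chr11:67237562-67237811 on the plus strand, each written 5′ to 3′ in the direction of the gene.
Myoz2: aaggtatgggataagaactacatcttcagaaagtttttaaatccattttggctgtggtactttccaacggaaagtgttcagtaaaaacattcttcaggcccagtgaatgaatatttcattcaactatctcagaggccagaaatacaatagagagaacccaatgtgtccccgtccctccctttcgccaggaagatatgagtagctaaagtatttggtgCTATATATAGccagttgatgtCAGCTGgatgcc
Klhl41: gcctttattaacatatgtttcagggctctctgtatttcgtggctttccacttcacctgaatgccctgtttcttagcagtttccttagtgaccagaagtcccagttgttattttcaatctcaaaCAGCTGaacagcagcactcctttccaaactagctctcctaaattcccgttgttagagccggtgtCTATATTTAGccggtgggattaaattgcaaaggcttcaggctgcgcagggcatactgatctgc
Myh4: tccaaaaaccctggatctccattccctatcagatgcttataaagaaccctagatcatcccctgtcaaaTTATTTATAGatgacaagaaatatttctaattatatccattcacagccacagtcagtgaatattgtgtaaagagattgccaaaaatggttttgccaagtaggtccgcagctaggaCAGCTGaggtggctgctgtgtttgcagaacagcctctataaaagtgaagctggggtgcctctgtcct
The E-box begins 12 bases before the start in Myoz2, 127 in Klhl41 and 67 in Myh4, and the MEF2 site 33, 63 and 182 bases before it. The log2 changes of the 3 genes were 5.12, 4.41 and 4.54.

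Most genes of the membrane systems that trigger contraction were higher. Of 26 tested genes of excitation-contraction coupling and the calcium store 19 were higher and 1 lower (median 2.41, 2.21 within the slide). Of the 26, 5 were tested through day 5 alone, and with the slide as a block 18 were higher and 0 lower. Atp2a1, the fast-muscle calcium pump of the sarcoplasmic reticulum, gave -0.86, -1.49 and -1.95 at day 2 and 3.64, 4.20 and 3.23 at day 5, and the stages did not overlap (log2 change 5.12 ± 0.37, limma adjusted p = 2.23e-06). Hrc, a calcium-binding protein of that store, rose by 4.86 ± 0.18. Ryr1, its skeletal muscle release channel, rose by 4.38 ± 0.18 and Casq1, its buffer calsequestrin, by 4.37 ± 0.16. Cav3, the muscle caveolin, was at least 13.6-fold higher, and Dhrs7c, a short-chain dehydrogenase of the sarcoplasmic reticulum, at least 22.1-fold higher, the largest such bound. Neither was well above background on any day 2 array, and both were on all day 5 arrays. These bounds hold for the main setting only. Across the alternative settings the fitted log2 change ran from 1.07 to 5.94 for Cav3 and from 1.89 to 5.97 for Dhrs7c. The next bounds were those of Adamts17, a secreted metalloprotease (at least 10.6-fold higher), and Klk11, a kallikrein protease (at least 9.54-fold). In the list of caveolae, T-tubule and dystrophin complex genes 15 of 28 tested were higher and 2 lower (median 0.59, 0.61 within the slide). With the slide as a block 11 were higher and 0 lower, and the 2 falls became 1 without day 2 replicate 2 or 3, any 1 array of day 5, any 1 of proliferation or day 8 replicate 2. Trim72, a membrane repair protein, rose by 2.15 ± 0.27.

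Ion channels and receptors of the muscle surface were among the rises. 8 of 16 tested channel and sodium pump genes were higher and 0 lower. Of the 16, 4 were tested through day 5 alone, and with probes above background on all 6 arrays 5 were higher. Scn4a, the sodium channel of skeletal muscle, was at least 5.93-fold higher. Fxyd1, phospholemman, rose by 3.86 ± 0.41 (2 of 3 day 2 arrays above background) and Kcnn3, a calcium-activated potassium channel, by 1.84 ± 0.36. Of 15 tested acetylcholine receptor and synapse genes 7 were higher and 2 lower (median 0.52). Chrng, the fetal receptor subunit, gave 1.02, 1.35 and 0.55 at day 2 and 4.10, 4.42 and 4.19 at day 5, with all day 5 arrays above all day 2 arrays (log2 change 3.26 ± 0.20, limma adjusted p = 6.61e-07). Lrp4, the agrin receptor, rose by 2.12 ± 0.15, Dok7, an activator of the MuSK kinase, by 2.04 ± 0.15, and Chrnd, the delta subunit, by 1.63 ± 0.12. The 2 falls were the ETS factors Etv4, by 2.15, and Etv5, by 0.58, both targets of growth factor signalling.

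Energy metabolism moved in parts. In the list of creatine, purine and oxygen handling 10 of 16 genes were higher and 0 lower. Ckm, muscle creatine kinase, gave -4.22, -3.60 and -4.61 at day 2 and 0.75, 0.88 and 0.82 at day 5, a 31.1-fold rise (4.96 ± 0.23). Cox6a2 and Cox8b, muscle isoforms of cytochrome c oxidase subunits, rose by 4.78 ± 0.20 and 3.30 ± 0.19. Oxidative phosphorylation as a list did not: 5 of 79 tested genes were higher and 1 lower (median -0.07), which is fewer than the 32.1% called either way over all genes, and the 5 include both muscle isoforms. The 5 became 3 without any 1 day 2 array, without day 5 replicate 3 or with the slide as a block, where the median was 0.02. In glycolysis and glycogen use 6 of 34 were higher and 8 lower (median -0.08), not far from the shares over all genes (13.7% and 18.3%). Pgam2, muscle phosphoglycerate mutase, rose by 4.35 ± 0.42 and Pygm, muscle glycogen phosphorylase, by 3.34 ± 0.21. Slc2a1, the glucose transporter of growing cells, had log2 signals of 6.01, 5.78 and 6.02 at day 2 and 4.83, 4.73 and 4.75 at day 5 and fell by 1.17, and Pfkfb1, a regulator of glycolytic flux, fell by 1.79. The count of falls in this list dropped by more than 1.5 times, to 5, without day 2 replicate 1, to 5 without replicate 2, to 4 without day 5 replicate 1 and to 4 without replicate 2. Of 39 genes of fatty acid oxidation and the citrate cycle 4 were higher and 8 lower (median -0.21), again near those shares. Ppargc1b, a coactivator of mitochondrial genes, rose by 1.04 ± 0.15 and Pdk2, a kinase that shuts pyruvate dehydrogenase, by 1.04 ± 0.23. Cpt1a, the carnitine palmitoyltransferase of non-muscle tissues, fell by 0.77. The 4 rises became 2 without day 2 replicate 1, and the 8 falls became 5 without day 2 replicate 3 or day 5 replicate 1. With the slide as a block 2 were higher and 5 lower.

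Among the factors that drive myogenesis, Myog stood apart in size. Its log2 signals were 1.70, 2.36 and 1.45 at day 2 and 6.40, 6.67 and 6.58 at day 5, a 26.2-fold rise (log2 change 4.71 ± 0.24, limma adjusted p = 2.05e-07), and the lowest day 5 array lay over 4 units above the highest day 2 array. Myod1 rose by 1.46 ± 0.17 and Mef2c, a MEF2 factor of differentiating muscle, by 1.25 ± 0.22, although the Mef2c call was lost with normexp (adjusted p = 0.0667). Eya2, a transcriptional coactivator, rose by 1.46 ± 0.28 and Tead4, a factor bound at muscle promoters, by 1.23 ± 0.14. Eya1, another such coactivator, fell by 0.63, a call lost without non-uniform spots (adjusted p = 0.387) but not with the percentile still from all spots (0.00305). Myf5 (-0.34 ± 0.15, adjusted p = 0.11) and Myf6 (-0.36 ± 0.18, adjusted p = 0.159) were not called. Other uncalled members were Mef2a (-0.20), Mef2b (-0.07), Mef2d (-0.20), Six2 (-0.19), Six4 (0.06), Six5 (0.37), Eya3 (-0.32), Tcf4 (0.65) and Smarcd3 (0.70). In total 11 of 23 tested factors were higher and 1 lower, with a median of 0.48 (0.57 within the slide). The 5 rises of Tcf12 (0.36), Srf (0.48), Pax7 (0.55), Eya4 (0.76) and Hes6 (0.76) had adjusted p from 0.0233 to 0.0414 and each was lost without at least 2 of the 6 arrays compared. With the slide as a block Tcf12 (0.152), Srf (0.0763) and Eya4 (0.148) were not called, and 9 members of the list were higher. The list's count of rises was 7 without day 2 replicate 2, 7 without day 2 replicate 3, 7 without day 5 replicate 2 and 7 without day 5 replicate 3.

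Repressors of differentiation did not fall as a group. Of 24 tested Id, Notch and repressor genes 11 were higher and 3 lower (median 0.31, 0.42 within the slide). Heyl, a Notch target, rose by 1.51 ± 0.25, and Dll1, a Notch ligand, by 1.39 ± 0.20. Bhlhe40, a repressor of the helix-loop-helix family, rose by 1.67 ± 0.18 and Zeb2, a zinc-finger repressor, was at least 2.59-fold higher. Msc, the repressor musculin, gave 2.69, 3.12 and 3.24 at day 2 and 1.34, 1.11 and 1.62 at day 5 and fell by 1.66, and Twist2, another inhibitor of myogenic factors, fell by 0.71. The Zeb2 call was lost with normexp (adjusted p = 0.295).

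Fusion and adhesion genes were found on both sides. Mymk, the membrane protein myomaker that drives myoblast fusion, had log2 signals of -0.33, -0.11 and -0.80 at day 2 and 3.86, 4.05 and 3.85 at day 5 and rose 20.2-fold (4.34 ± 0.18, limma adjusted p = 8.71e-08), with no overlap. The adhesion genes Cdh11, a cadherin, and Elmo1, part of a Rac activator used in fusion, rose by 2.72 ± 0.18 and 1.09 ± 0.15. Ncam1, a cell adhesion molecule of the immunoglobulin family, rose by 1.99 ± 0.16 on its brightest probe but was not called on the median of its probes (adjusted p = 0.103). Jam2, a junctional adhesion molecule, fell by 1.18 and Kirrel, a nephrin relative, by 0.89, the latter not called without non-uniform spots (adjusted p = 0.414) unless the percentile came from all spots (0.0108). Over the list 7 of 25 tested genes were higher and 4 lower (median 0.13). Without day 2 replicate 3 the falls numbered 2 and the median turned to -0.02.

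Genes of the cell cycle were lower at day 5. Of 57 tested mitosis genes 54 were lower at day 5 and 0 higher (median -2.31, -2.44 within the slide), where 18.3% of all genes were lower. Kif2c, a kinesin that takes microtubules apart at centromeres, had log2 signals of 5.25, 4.99 and 5.23 at day 2 and 2.13, 1.97 and 2.27 at day 5 and fell by 3.04 (0.15 SE, limma adjusted p = 2.09e-07). Ccnb2, cyclin B2, gave 4.45, 4.01 and 4.19 at day 2 and 1.64, 0.87 and 1.31 at day 5 and fell by 2.95 (0.24 SE). In both cases every day 5 array lay below every day 2 array. Aurka, a spindle pole kinase, fell by 2.93 and Ube2c, the ubiquitin-conjugating enzyme of the anaphase-promoting complex, by 2.91. The 3 uncalled members, named after their values were seen, also had negative changes: Bub1 (-0.62), Kif20a (-0.36) and Cenpf (-1.93).

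Of 46 tested DNA replication genes 43 were lower and 0 higher (median -1.48, -1.46 within the slide). Mcm3, a subunit of the replicative helicase, had log2 signals of 3.55, 2.57 and 2.24 at day 2 and 0.06, -0.33 and 0.19 at day 5 and fell by 2.81 (0.29 SE, limma adjusted p = 3.09e-05). Mcm10, a helicase-loading factor, fell by 2.80, Tk1, the thymidine kinase of S phase, by 2.58, and Orc1, a subunit of the origin recognition complex, by 2.45. Replication-dependent histone genes were lower in 34 of 56 cases and higher in 1 (median -1.17, -1.10 within the slide), and 8 of the 56 were tested through day 2 alone. H2ac11 gave 1.92, 2.22 and 2.06 at day 2 and -0.84, -1.05 and -0.81 at day 5 and fell by 2.97, and H3c8 fell by 2.97. Histone genes exist in many near-identical copies, so a probe may read several of them and single members are uncertain. The 1 rise, of the linker histone H1f2 (0.43 ± 0.15), had an adjusted p of 0.0487 and was lost without any 1 of 5 of the 6 arrays compared. Without non-uniform spots 25 of 27 mitosis, 5 of 9 replication and 12 of 27 histone genes were lower, and with the percentile still from all spots 25, 7 and 19.

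Regulators of the cycle went in both directions. Of 31 tested cyclins, E2F factors and inhibitors 6 were higher and 11 lower. E2f7, an E2F repressor of S phase, fell by 2.49, Ccnd1, cyclin D1, by 1.68, Ccne1, cyclin E1, by 1.46, and Cdkn2d, an inhibitor of cyclin D kinases, by 1.30. Ccnd3, the D cyclin kept in muscle, gave 5.42, 5.29 and 4.94 at day 2 and 6.36, 6.32 and 6.37 at day 5 and rose by 1.14 ± 0.24, and Rb1, the retinoblastoma protein, gave 2.76, 2.79 and 2.89 at day 2 and 3.72, 3.94 and 3.76 at day 5 and rose by 1.00 ± 0.12. For both genes the stages did not overlap. Cdkn1a, the p21 inhibitor, was called at 0.96 ± 0.25 (adjusted p = 0.0144), but not without day 2 replicate 3 (0.0609) or day 5 replicate 2 (0.0562), nor with the slide as a block (0.064).

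Promoter windows of the cell cycle lists were searched in the same way. Of 48 mitosis genes with a window 32 held the cell cycle element TTTGAA on either strand (66.7%, against 20.2% of all genes in the table) and 36 held the CCAAT box (75% against 41.1%, and 42.9% of sarcomere genes). The CCAAT box was not particular to the cell cycle lists. It occurred in 21 of 24 sterol and fatty acid synthesis genes (87.5%) and 18 of 23 unfolded protein response genes (78.3%). The E2F-type motif TTGGCGC occurred in 11 of 38 DNA replication genes (28.9%) against 2.85% of all genes, and in 8 of 48 mitosis genes (16.7%). Over tested protein-coding genes with a window its share was 4.67%. It was not particular to the cell cycle lists either, since 4 of 13 imprinted genes held it (30.8%). Histone windows held CCAAT in 44 of 51 genes (86.3%). Windows of 3 mitosis genes are shown, with CCAAT and TTTGAA on either strand in capitals: chr9:70421555-70421804 on the minus strand, chr11:99024190-99024439 on the minus strand and chr19:37376132-37376381 on the plus strand. They belong to Ccnb2, to Top2a, the topoisomerase that untangles chromosomes, and to Kif11, the kinesin that separates spindle poles, and they were chosen after their values were seen.
Ccnb2: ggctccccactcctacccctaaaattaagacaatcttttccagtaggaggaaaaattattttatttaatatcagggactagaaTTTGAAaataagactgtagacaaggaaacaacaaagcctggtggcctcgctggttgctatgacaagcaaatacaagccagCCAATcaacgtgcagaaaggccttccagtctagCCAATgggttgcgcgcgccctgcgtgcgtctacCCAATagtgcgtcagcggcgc
Top2a: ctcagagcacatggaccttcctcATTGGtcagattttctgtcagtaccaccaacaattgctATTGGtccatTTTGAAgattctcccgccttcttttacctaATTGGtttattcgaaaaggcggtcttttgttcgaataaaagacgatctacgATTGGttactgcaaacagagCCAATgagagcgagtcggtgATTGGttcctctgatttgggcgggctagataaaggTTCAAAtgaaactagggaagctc
Kif11: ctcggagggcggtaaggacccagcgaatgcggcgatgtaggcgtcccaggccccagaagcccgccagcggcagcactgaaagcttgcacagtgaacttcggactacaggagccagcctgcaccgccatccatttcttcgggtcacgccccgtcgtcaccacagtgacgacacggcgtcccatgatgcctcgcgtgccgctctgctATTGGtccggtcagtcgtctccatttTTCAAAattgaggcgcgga
In Ccnb2 the CCAAT boxes begin 87, 54 and 21 bases before the start and TTTGAA 167 bases before it. In Kif11, CCAAT and TTTGAA lie on the opposite strand at 45 and 19 bases. Log2 signals of Top2a were 4.95, 5.57 and 5.38 at day 2 and 2.90, 3.03 and 2.74 at day 5, a fall of 2.41, and those of Kif11 2.28, 2.50 and 2.37 at day 2 and -0.28, -0.25 and 0.15 at day 5, a fall of 2.51. The helicase genes Mcm6 (chr1:128359706-128359955, minus strand) and Mcm5 (chr8:75109259-75109508, plus strand) are shown with TTGGCGC and CCAAT in capitals.
Mcm6: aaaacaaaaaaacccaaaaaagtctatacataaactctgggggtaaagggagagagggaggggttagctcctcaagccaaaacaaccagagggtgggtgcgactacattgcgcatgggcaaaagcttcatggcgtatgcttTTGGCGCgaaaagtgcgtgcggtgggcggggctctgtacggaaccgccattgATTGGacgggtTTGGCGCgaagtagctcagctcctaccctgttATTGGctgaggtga
Mcm5: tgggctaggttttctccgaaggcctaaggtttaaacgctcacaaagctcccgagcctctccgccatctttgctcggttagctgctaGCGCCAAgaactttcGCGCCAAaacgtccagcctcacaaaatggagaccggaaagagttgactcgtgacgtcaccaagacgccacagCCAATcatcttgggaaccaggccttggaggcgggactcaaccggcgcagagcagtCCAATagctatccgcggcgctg
Mcm6 holds TTGGCGC at 109 and 46 bases before the start, and Mcm5 holds it on the opposite strand at 164 and 149 bases. Mcm6 fell by 1.14 (0.17 SE) and Mcm5 by 1.54 (0.36 SE), less than the list's median for Mcm6 and close to it for Mcm5.

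**Figure D3:**
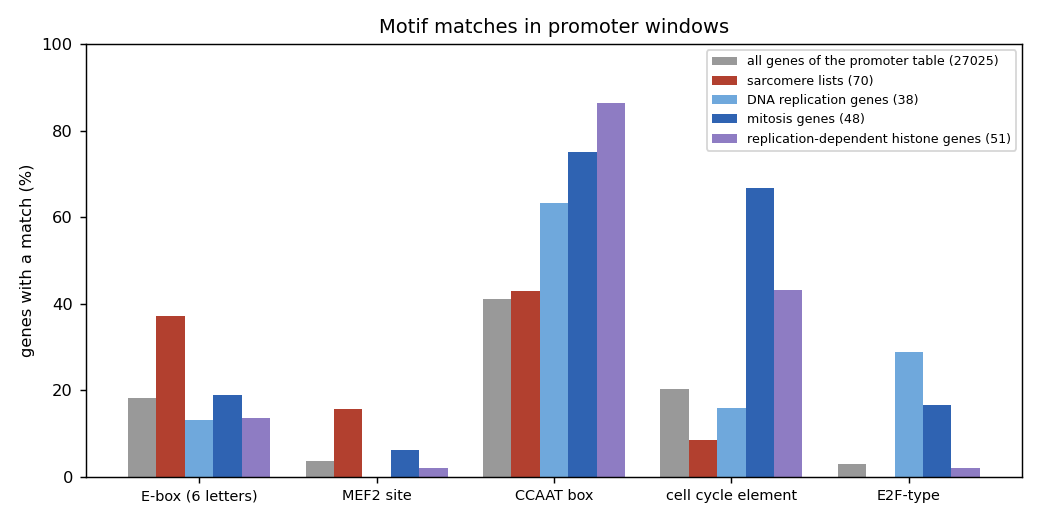
Percentage of genes with a motif match in a RefSeq promoter window, for all genes of the table and for 4 gene groups, with the number of genes that have a window in parentheses. Among the groups drawn, the 6-letter E-box and the MEF2 site were most frequent in the sarcomere lists. The cell cycle element was most frequent in mitosis genes (66.7%) and the E2F-type motif in DNA replication genes (28.9%). Some lists not drawn had shares as high for the E-box, the MEF2 site or the E2F-type motif.

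Genes of sterol and fatty acid synthesis were also lower. Of 35 tested genes 28 were lower and 0 higher (median -0.95, -0.99 within the slide). Lss, which closes the sterol ring, had log2 signals of 1.89, 2.02 and 1.75 at day 2 and -0.36, -0.17 and -0.26 at day 5 and fell by 2.15 (0.15 SE, limma adjusted p = 2.09e-06). Stard4, a cholesterol carrier, fell by 1.63 and Nsdhl, a sterol demethylation enzyme, by 1.58. For these 3 genes the day 5 arrays lay below the day 2 arrays. Without non-uniform spots 9 genes of the list could be tested, of which 1 was called lower, with a median of -0.68. With the percentile still taken from all spots 6 of those 9 were lower, with a median of -0.87.

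Stress and protein synthesis genes changed less. Of 24 redox genes 6 were lower and 0 higher, and 18 were not called. The 3 largest of these falls were Nqo1, a quinone reductase (-1.83), Gclm, a subunit of the glutathione-making ligase (-1.33), and Srxn1, sulfiredoxin (-1.32). These 3 are known targets of the factor NRF2, whose activity was not tested. Unfolded protein response genes gave 3 rises and 3 falls among 24, and 5 falls without day 5 replicate 2. Asns, asparagine synthetase, fell by 1.22, and Herpud1, an endoplasmic reticulum stress protein, rose by 0.71 ± 0.16. Of 78 tested ribosomal protein genes 3 were higher and 6 lower, and of 41 ribosome biogenesis genes 1 was higher and 7 lower, below the background in both cases. Without day 5 replicate 2 the 6 became 3, and without day 2 replicate 3 the 3 became 1, as with the slide as a block. The 7 became 4 without day 2 replicate 3 or day 5 replicate 1, or with the slide as a block. Tcof1, a nucleolar factor of ribosomal RNA transcription, fell by 1.54, while Mycl, a member of the Myc family, rose by 1.28 ± 0.14. Among heat-shock genes 4 of 20 were higher and 2 lower (1 lower without day 2 replicate 3 or day 5 replicate 2 or 3, or with the slide as a block), and Hspb3, a small heat-shock protein of muscle, rose by 4.79 ± 0.66 with 2 of 3 day 2 arrays above background.

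The largest falls lay outside the cell cycle. Mcpt8, a protease known from basophils, had log2 signals of 2.27, 2.67 and 2.89 at day 2 and -1.78, -2.30 and -1.74 at day 5, a 23.4-fold fall (log2 change -4.55 ± 0.21, limma adjusted p = 1.25e-07). Nefl and Nefm, the light and medium neurofilament chains, gave 4.28, 4.53 and 4.86 at day 2 and 0.25, 0.28 and 0.25 at day 5 for Nefl and 2.67, 2.76 and 3.39 at day 2 and -1.29, -1.50 and -0.97 at day 5 for Nefm. Every day 5 array of these 3 genes lay more than 3 log2 units below every day 2 array. Prl2c3, Prl2c5 and Prl2c2, proliferins of the prolactin family, fell by 3.53, 3.53 and 3.49, and as near-identical copies they may share hybridisation. Cpn1, a carboxypeptidase subunit of plasma, fell by 4.18, Tm4sf4, a tetraspanin-like protein, by 3.72, and Urah, an enzyme of urate breakdown, by 3.65. Krt19, a simple-epithelium keratin, gave 1.44, 1.74 and 1.61 at day 2 and -1.66, -2.03 and -1.84 at day 5 and fell by 3.44. Abcd4, a transporter of cobalamin export from lysosomes, fell by 3.60 and Bpifc, a lipid-binding protein, by 3.46. Falls to below background were largest for Igsf5, a junctional immunoglobulin protein (at least 17.0-fold lower), Aspg, an asparaginase (at least 10.6-fold), Defb28, a defensin (at least 10.5-fold), and Pate14, a secreted prostate and testis protein family member (at least 8.54-fold). None of the 4 was well above background on any day 5 array. Their bounds too hold for the main setting only, and the fitted log2 change of Igsf5 ran from -4.90 to -1.28 across the alternative settings.

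Since neural and keratinocyte genes stood among the falls, the marker lists of other cell types are given, with the calls and the summed linear signal of their members in units of each array's 75th percentile. Neural markers (9 of 12 tested) were lower in 5 cases and higher in 1 (0 without any 1 of the 6 arrays compared other than day 2 replicate 2), and their sum went from 77.8 to 84.6 at day 2 to 19 to 21.5 at day 5. Tubb3, a neuronal tubulin also made by dividing cells, fell by 2.11 and Gap43, a growth cone protein, by 2.14, while Elavl4 was not well above background on any of the 6 arrays. Keratinocyte markers (8 of 10 tested) were lower in 5 cases and higher in 1, and their sum went from 27.4 to 31.1 to 7.24 to 7.91. Of the 8 tested, 3 were tested through day 2 alone, and with probes above background on all 6 arrays 3 were lower. Krt14, a basal keratin, fell by 1.81, Sprr1a, a cornified envelope protein, by 2.73, and Trp63, the basal epithelial factor p63, rose by 1.85 ± 0.18. Ivl, involucrin, was not above background on any of these arrays. Endothelial markers (5 of 9 tested) were lower in 3 cases and higher in 0, among them Flt1, a VEGF receptor (-2.37), and their sum was 0.954 to 1.21 at day 2 and 0.716 to 0.914 at day 5. Of the 5 tested, 3 were tested through day 2 alone, and with probes above background on all 6 arrays 1 was lower. Esam and Vwf were below background on all 6 arrays. Macrophage markers (6 of 9 tested) were lower in 2 cases (1 without day 2 replicate 1 or 3, or with the slide as a block) and higher in 0. They had sums of 1.26 to 1.67 and 0.915 to 1.23, and Adgre1, Itgam and Ptprc, which define leukocytes, were below background on all 6 arrays. Adipocyte markers (3 of 10 tested, 1 higher, 1 lower) were mostly below background (Adipoq, Cfd, Fabp4, Lep, Plin1 and Retn on all 6 arrays), with sums of 2.81 to 3.63 and 3.07 to 3.69. Osteoblast and chondrocyte markers (7 of 12 tested, 1 higher, 1 lower) had sums of 13.3 to 14.2 and 10.7 to 11.2, with Acan, Alpl and Comp below background, and smooth muscle markers (6 of 8 tested, 3 higher, 1 lower) 55.9 to 64.7 and 60.1 to 78.4, with Cnn1 below background. The largest of the 3 smooth muscle rises was that of Des (1.45), given above as a marker of this muscle line, so the list is not confined to another cell type. The 1 smooth muscle fall became 2 without day 2 replicate 1 or day 5 replicate 1 or 2. Satellite and reserve cell markers (10 of 12 tested, 3 higher, 1 lower) had sums of 43.4 to 44.9 and 40.6 to 42.3, and Cxcr4, a chemokine receptor of precursor cells, rose by 1.76 ± 0.21. The 1 fall of that list was lost without day 2 replicate 1 or 3. The part of other cells in the falls of these genes was not tested.

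In the lists of secreted factors and matrix more genes were called higher than lower at day 5. Among 24 tested chemokines, interleukins and myokines 13 were higher and 2 lower (median 0.75, 0.67 within the slide). Cxcl14, a chemokine, rose by 4.05 ± 0.55, Fgf21, an endocrine growth factor made by stressed muscle, by 3.75 ± 0.31, and Fst, the activin antagonist follistatin, by 2.85 ± 0.22. Fndc5, the precursor of irisin, rose by 3.58 ± 0.18, with 2 of 3 day 2 arrays above background. Angptl4, a lipase inhibitor, fell by 1.89. In the insulin-like growth factor axis, Igf2 had log2 signals of -0.98, -0.41 and -1.76 at day 2 and 3.92, 3.96 and 3.95 at day 5, a 31.8-fold rise (4.99 ± 0.29, limma adjusted p = 5.58e-07), and Igf1 gave -3.49, -3.33 and -4.17 at day 2 and 0.50, 0.57 and 0.51 at day 5 (4.19 ± 0.31). Both growth factors were higher on every day 5 array. Grb10, an inhibitor of the insulin and IGF receptors, rose by 1.70 ± 0.19, and Igfbp2, an IGF-binding protein, fell by 1.19. Over that list 8 of 17 tested genes were higher and 3 lower, and 5 and 1 with the slide as a block. Without day 2 replicate 3 the 8 became 4, and without day 2 replicate 2 or 3 or day 5 replicate 3 the 3 became 1. Igfbp5, the binding protein of differentiating myoblasts, was called at 1.10 ± 0.29 but not without day 2 replicate 3 (adjusted p = 0.0536) or day 5 replicate 2 (0.0506).

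Of 29 tested collagens 12 were higher and 5 lower (median 0.46, 0.39 within the slide). Without non-uniform spots 5 of 18 were higher and 4 lower, with a median of 0.11. With the percentile still taken from all spots the counts were the same and the median was -0.08. Col6a2 and Col6a1, chains of the microfibrillar collagen VI around muscle fibres, rose by 3.63 ± 0.16 and 2.95 ± 0.25, and the signals of Col6a2 were 1.03, 1.34 and 0.81 at day 2 and 4.64, 4.87 and 4.57 at day 5. Col8a2 rose by 3.16 ± 0.20 and Col11a1 by 1.89 ± 0.20, while Col7a1, the anchoring fibril collagen of skin, fell by 2.30. Among 33 other matrix genes 16 were higher and 6 lower. Ogn and Prelp, small leucine-rich proteoglycans, rose by 3.42 ± 0.29 and 2.65 ± 0.14, as did Cilp, a cartilage matrix protein (2.72 ± 0.44). Thbs2, thrombospondin 2, fell by 2.01 and Loxl2, a collagen crosslinking oxidase, by 1.50. Of 24 matrix proteases and inhibitors 8 were higher and 4 lower, with Mmp3, stromelysin 1, up by 3.01 ± 0.22 and Plaur, the urokinase receptor, down (-2.07 ± 0.28).

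Growth factor pathways had rises and falls side by side. In the TGF-beta, activin and BMP list 13 of 32 genes were higher and 4 lower. Chrd, the BMP antagonist chordin, rose by 1.46 ± 0.13 and Gdf6, a BMP family ligand, by 1.30 ± 0.19, while Grem1, the antagonist gremlin 1, fell by 1.88, Ltbp1, a latent TGF-beta binding protein, by 1.68, and Gdf15, a stress-induced ligand, by 1.42. In the FGF, Met and Sprouty list 7 of 22 were higher and 3 lower. Fgf13, an intracellular member of the FGF family, rose by 2.56 ± 0.48, and Met, the receptor of hepatocyte growth factor, and Dusp4, a phosphatase of MAP kinases, fell by 0.85 and 1.71. Of 25 Wnt genes 6 were higher and 2 lower: the ligands Wnt6 and Wnt10a rose by 2.11 ± 0.36 and 1.46 ± 0.22 and the target Axin2 by 1.01 ± 0.14, while Wnt7b and the inhibitor Dkk2 fell by 1.49 and 2.39.

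Immediate early genes, which respond within minutes to growth factors and stress, were higher at day 5 in 12 of 22 cases and lower in 2 (median 0.53, 0.62 within the slide). Egr2, a zinc-finger factor, had log2 signals of -0.17, 0.61 and -0.44 at day 2 and 3.89, 3.43 and 2.90 at day 5 (3.41 ± 0.31), and Nr4a1, an orphan nuclear receptor, 1.24, 1.29 and 1.05 at day 2 and 4.95, 4.44 and 4.18 at day 5 (3.33 ± 0.21). Egr1 gave 1.69, 1.90 and 1.81 at day 2 and 4.53, 4.90 and 4.54 at day 5 (2.86 ± 0.45) and Fos 3.10, 2.99 and 2.71 at day 2 and 5.36, 5.22 and 5.11 at day 5 (2.30 ± 0.18, limma adjusted p = 4.31e-06). The stages did not overlap for any of these 4 genes. Atf3, a stress-induced factor, rose by 1.27 ± 0.23. The 2 falls were Fosl1, the Fos relative of growing cells (-2.04 ± 0.27), and Nr4a2, an orphan receptor (-1.57 ± 0.29). Without non-uniform spots 10 members could be tested, and 2 were higher and 1 lower (3 and 1 with the percentile from all spots). In the step from day 5 to day 8, which shares the day 5 arrays, 0 of the 22 rose, 10 fell and 12 were not called. Of all 22413 tested probes 1304 rose and 1571 fell in that step. Fos then fell by 2.85 (adjusted p = 3.39e-05), Nr4a1 by 3.52 (2.16e-05), Egr2 by 1.98 (0.00354), Egr1 by 2.11 (0.0142) and Atf3 by 3.08 (8.29e-05).

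**Figure D4:**
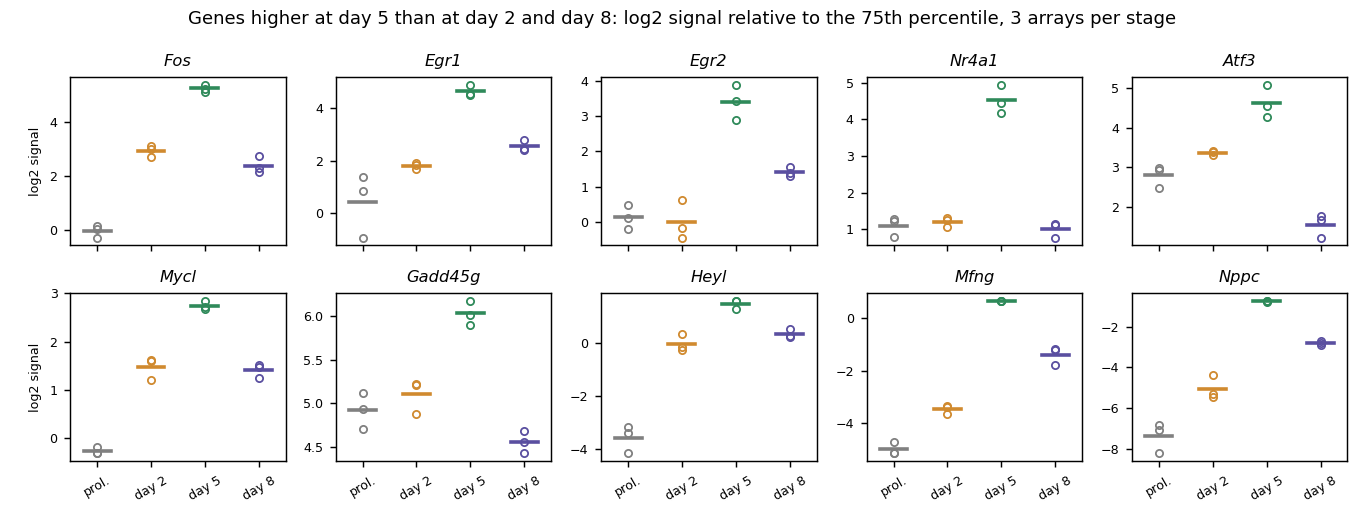
Signals of 10 genes on all 12 arrays, as log2 relative to the 75th percentile of each array. Open circles are the 3 arrays of a stage and bars their means; prol. is proliferation. The genes were chosen for a day 5 mean above those of day 2 and day 8, so every panel has that shape. For Nr4a1 the day 5 mean lies above them by 3.33 and 3.52 log2 units.

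The middle step was then set against the last step, from day 5 to day 8, with the difference of the 2 steps as the contrast. It differed for 3091 of 22413 probes (13.8%): 1482 changed more upward in the middle step and 1609 more downward. All 3 day 8 arrays share a slide with day 5 replicate 3, while day 5 replicates 1 and 2 lie on another. Differences between slides can therefore enter the last step and this contrast. With the slide as a block the steps differed for 2943 probes. The last step alone gave 2875 calls, and both steps share the day 5 arrays, so a high or low day 5 level enters them with opposite sign. 304 probes rose and then fell with each step and their difference called, and 249 fell and then rose. In the lists of the sarcomere, 6 of 11 heavy chains and 8 of 15 light chain genes changed more upward in the middle step than in the last (1 light chain gene more downward). The same held for 16 of 25 thin filament genes, 21 of 32 Z-disc, M-band and assembly genes and, outside the sarcomere, 16 of 26 coupling and calcium store genes, and the last-step medians of these 3 lists were -0.27, -0.07 and -0.05. For 42 of 57 mitosis genes the change was more downward in the middle step, with a last-step median of -0.62, and for 16 of 46 DNA replication genes (last-step median -0.68). Sterol synthesis differed for 19 of 35 genes, with a last-step median of 0.13. Myh4 rose by 4.54 ± 0.24 in the middle step and by 4.32 (0.24 SE) in the last, and the difference of its steps was not called (adjusted p = 0.806). Myh1 rose by 2.06 (0.25 SE) in the last step and Casq1 by 1.89 (0.16 SE).

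**Figure D5:**
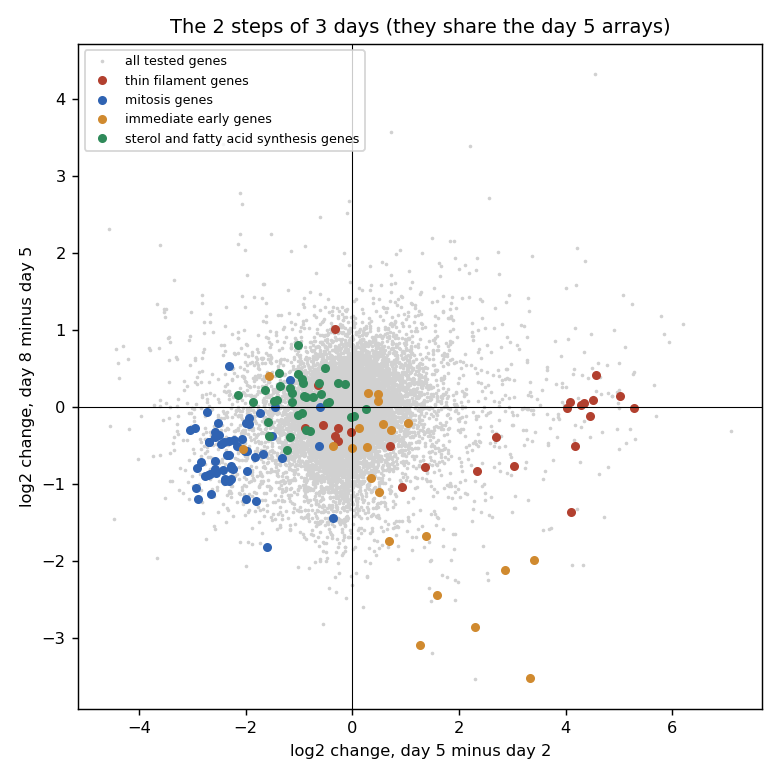
Each grey point is a tested gene, with its log2 change from day 2 to day 5 on the horizontal axis and from day 5 to day 8 on the vertical axis, and coloured points are 4 gene lists. The steps share the day 5 arrays, so a gene's errors in them are not independent. Thin filament genes spread to the right near 0 on the vertical axis, mitosis genes lie to the left, and immediate early genes that rose in the middle step lie below 0 in the last.

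Non-coding transcripts were also on the array. Of 6408 tested probes of the non-coding set 1636 were called (25.5%, against 32.8% of mRNA probes), 900 higher and 736 lower. Most are known in the files by a transcript accession alone, and nothing in the sources used here shows that each is non-coding or where it lies relative to genes. The transcript uc007cud had the largest rise, with log2 signals of -5.32, -5.42 and -6.13 at day 2 and 0.08, 0.23 and 0.14 at day 5 (55.0-fold, 5.78 ± 0.39). It was followed by uc009use (4.66 ± 0.21), uc009sqw (4.59 ± 0.20), AK017368 (4.40 ± 0.30), AK010233 (4.31 ± 0.13) and AK143109 (4.15 ± 0.21). AK015549 had the largest fall, with 0.18, -0.74 and 0.34 at day 2 and -4.05, -4.12 and -3.90 at day 5 (-3.95 ± 0.27), ahead of uc009mix (-3.16 ± 0.27), AK054319 (-2.96 ± 0.19), AK078071 (-2.90 ± 0.19), uc008ojd (-2.89 ± 0.18) and uc007mwe (-2.77 ± 0.18). In these 12 transcripts the stages did not overlap, and the call held under every alternative that could be run. Of 184 tested curated non-coding RNAs 18 were higher and 36 lower (29.3% called), and of 152 ultraconserved elements 13 were higher and 7 lower (13.2%, beside 30.7% of all probes). These differences in share were not tested.

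Of 14 tested long non-coding RNA genes 2 were higher and 2 lower. Tug1, a nuclear lncRNA, had log2 signals of -1.47, -1.45 and -1.26 at day 2 and -0.13, 0.19 and -0.31 at day 5 and rose by 1.31 ± 0.17 (limma adjusted p = 0.000166). Norad, a cytoplasmic lncRNA that binds Pumilio proteins, gave 2.33, 1.95 and 1.86 at day 2 and 3.02, 3.05 and 2.86 at day 5 and rose by 0.93 ± 0.18. Both were higher on every day 5 array. Snhg1 (-0.49 ± 0.15) and Snhg7 (-0.51 ± 0.15), hosts of small nucleolar RNAs, were called lower, with adjusted p of 0.0284 and 0.0214. Without day 2 replicate 2 or 3 or day 5 replicate 2 neither was called: the adjusted p were 0.0901, 0.0798 and 0.0851 for Snhg1 and 0.0555, 0.076 and 0.0735 for Snhg7, and Snhg1 was also lost without day 5 replicate 1 (0.0858). Malat1 (-0.21 ± 0.16), Neat1 (0.64 ± 0.26, adjusted p = 0.0912), Pvt1 (0.39 ± 0.22), Xist (0.44 ± 0.35), Airn (0.71 ± 0.47), Miat (0.45 ± 0.71, 2 of 3 day 5 arrays above background), Peg13 (0.25 ± 0.17), Snhg3 (-0.17 ± 0.11), Snhg6 (-0.06 ± 0.32) and Sra1 (-0.15 ± 0.20) were not called.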

How the data were processed

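The submitters' processing notes name Agilent Feature Extraction 10.5.1.1, and each array has its own scanner file. The values used are the green processed signal, a deposited intensity in scanner units, per the file headers. They record no scaling across arrays. From it log2 values were computed here, spots of a probe were averaged without population outliers, and each array's 75th percentile was subtracted. Controls and 200 negative-probe spots were left out.

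All 12 arrays entered a fit of stage means in limma 3.58.1 (R 4.3.3, with jsonlite 2.0.0; plots with matplotlib 3.10.9 in Python 3.11.15), and the contrasts day 5 minus day 2 and the difference of the middle and last steps were read, with Benjamini-Hochberg adjustment over all 22413 tested probes (threshold 0.05). The test was tested on simulated data. Errors are standard errors of the fit, with n = 3 arrays per stage. Where all 3 arrays of a stage left a probe at background, "at least N-fold" sets the brighter stage's mean against, per array, the higher of the lowest signal among probes well above background and the probe's own. Such a bound belongs to the main setting, and an alternative setting can give a smaller fold. A probe above background on part of a stage's arrays keeps its plain fold.

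Symbols came from a RefSeq table of GRCm38.p6 matched by accession (22216 probes named). Of 13526 tested genes 1629 had several tested probes, and 12 had probes called in opposite directions. Named genes are the 12 largest non-overlapping rises and falls of protein-coding genes above background on all 6 arrays, the 4 largest bounds each way, up to 4 called members per list and direction, all myogenic factors and heavy chains, the 6 largest non-coding rises and falls with the tested members of the lncRNA list, and the 6 largest turns between steps. A few genes that this rule names are counted but not reported here by name. Members and lists were chosen with earlier results of these data known. The tested genes matched the promoter table in under 80% of cases, so all genes of that table served as background for motifs. Replicate numbers were not used to pair the samples. Alternatives varied the background correction, normalization, filters, slide, replicate block, arrays and probes per gene.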

Additional observations from a re-analysis of the deposited data

Results flagged for a closer look

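Both steps last 3 days. Among genes with called steps of opposite sign, 6 had the largest fitted difference between them, each tested in limma as the middle step minus the last. Nr4a1, an orphan nuclear receptor of the immediate early class, rose by 3.33 ± 0.21 and then fell by 3.52, a difference of 6.85 (adjusted p = 6.54e-06). Nppc, the C-type natriuretic peptide, gave -5.33, -4.40 and -5.48 at day 2 and -0.79, -0.75 and -0.71 at day 5, then fell by 2.04, a difference of 6.36 (7.51e-05). Mfng, a glycosyltransferase that modifies Notch receptors, gave -3.36, -3.38 and -3.63 at day 2 and 0.64, 0.68 and 0.68 at day 5 and then fell by 2.05, a difference of 6.17 (6.54e-06). For Myog, the rise of 4.71 was followed by a fall of 1.43, a difference of 6.14 (1.07e-05). Mcpt8 went down by 4.55 and up by 2.30, a difference of -6.86 (6.54e-06).

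Iqcf5, an IQ motif protein, was at least 4.18-fold lower at day 5, where no array was well above background. Its fitted difference of -5.85 rests on that day 5 level, which is only a bound, so the size of its turn is not known. Its fall was lost without day 2 replicate 3 (adjusted p = 0.0526) or day 5 replicate 1 (0.0534). Since the steps share the day 5 arrays, an error of the day 5 level enters both with opposite sign. The part of day 5 sampling in these turns was not tested.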

How the results depend on the processing

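Across the alternatives no named gene reversed: of 316 called, 228 kept their call in every setting that could test them and 88 lost it in at least 1, 38 of them with the slide as a block and 47 when an array was left out. Of 50 list medians 34 kept their sign, and of 100 list counts 81 moved by over 1.5 times in at least 1 setting. A count that rose from 0 was scored as moved, but one that went from 1 to 0 was not. The 1 fall of the coupling and calcium store list, for example, became 0 with the slide as a block and was not scored. The 6889 changed probes became 2137 without spots marked non-uniform and 3563 when the percentile was still taken from all spots, where fewer probes had values (13572 tested). Of the calls 47.5% were higher in the main setting and 59.9% without those spots, and the median over all probes went from -0.09 to 0.06. With the percentile still from all spots these were 47% and -0.12, and quantile normalization gave 52.7% higher. Leaving out each array in turn gave 5665 to 7183 changed probes. The 3091 probes whose steps differed became 1854 with no filter on dim probes and 549 and 1484 in the same 2 non-uniform settings; leaving out each array gave 1927 to 3266, the lowest without day 5 replicate 1 (1927). The cause of the other shifts was not tested. With the replicate number as a block 6636 probes changed and 2856 steps differed. Deviations of same-numbered day 2 and day 5 arrays correlated at -0.04, 0.24 and 0.00469, and only replicate 2 correlated best with its own number, so the numbers were not used as pairs. Replicate 2 is also the only number whose day 2 and day 5 arrays share a slide. These correlations therefore cannot tell pairing of cultures from a shared slide. Normexp (chosen after the data were examined) ran on median signals, and the planned version on mean spot signals was not run, since the files used here hold no such column. Probes near background and 3 arrays per stage limit the precision.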

Other observations

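Of 34 chromatin regulator genes 6 were higher and 9 lower, not far from the shares over all genes (13.7% and 18.3%). Uhrf1, a reader of hemimethylated DNA, fell by 2.27 and the architectural protein Hmga1 by 2.06, while Dnmt3a, a de novo DNA methyltransferase, gave -0.40, -0.20 and -0.67 at day 2 and 1.30, 1.33 and 1.19 at day 5 and rose by 1.69 ± 0.14. Tet2, which oxidises methylated cytosine, rose by 0.78 ± 0.14 and Hdac4, a class IIa deacetylase that binds MEF2, by 0.72 ± 0.15. Among 20 tested splicing regulators 4 were higher and 4 lower, again near those shares. Srpk3, a muscle kinase of splicing factors, gave -1.94, -1.61 and -2.17 at day 2 and 2.32, 2.40 and 2.43 at day 5 and rose 19.5-fold (4.29 ± 0.30, limma adjusted p = 1.62e-06), and Rbm24, a muscle splicing factor, rose by 3.18 ± 0.13. Ptbp1, the repressor of muscle and neural exons, fell by 1.04, and Celf4, a neuronal relative of Celf2, fell by 2.77 while Celf2 rose by 2.11 ± 0.18. In the ubiquitin, Foxo and autophagy list 8 of 27 were higher and 1 lower, with Trim54, a muscle ring-finger protein, up by 3.27 ± 0.12 and Asb2, a muscle ubiquitin ligase subunit, up by 3.29 ± 0.22.

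Interferon-stimulated genes were called about as often as all genes, with 4 of 33 higher and 6 lower, and 3 lower without day 2 replicate 3 or day 5 replicate 1. Zbp1, a nucleic acid sensor, rose by 1.95 ± 0.36 and Ifit3 by 1.23 ± 0.17, while Ifitm1 fell by 1.91 and Stat2, part of the interferon-activated complex, by 1.05. Among 18 tested imprinted genes 5 were higher and 3 lower: Dcn, the proteoglycan decorin, rose by 2.49 ± 0.19, and Ndn, necdin, fell by 1.02. Of 15 reference genes often used for scaling 4 were lower and 0 higher (median -0.27), among them Rplp0 (-0.99 ± 0.15), Ywhaz (-0.80 ± 0.16) and Gusb (-0.84 ± 0.20).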
